A study of Mus musculus with 4 samples.

Results

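The chemokines Ccl2, Ccl7, Ccl8, Ccl5, Cxcl1, Cxcl5, Cxcl10, Cxcl12 and Cxcl14 and the cytokine Il6, which fibroblasts and other stromal cells can secrete, were read in mouse embryonic fibroblasts (MEFs) with and without induction of Mitf, the master transcription factor of melanocytes. These 10 genes were taken by name, and all their exons listed in the deposited values were used, 43 of 234718 exons. They are 10 of the 22835 genes found among those exons. Every member was listed, with between 3 and 8 exons.

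Chemokines are small secreted proteins that steer the movement of cells by binding G protein-coupled receptors. They are divided by the spacing of their first cysteines into CC chemokines (the Ccl genes), many of which draw monocytes and T cells, and CXC chemokines (the Cxcl genes), some of which draw neutrophils. Many are made in fibroblasts within hours of a signal from IL-1, TNF or interferon, while Cxcl12 is made without such a signal. Il6 encodes interleukin-6, a cytokine of the acute phase response that signals through the receptor chains encoded by Il6ra and Il6st.

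RNA was sequenced from wild-type MEFs at passage 3 (MEF), from Mitf knock-in MEFs at passage 5 that received no Dox (Dox (-)), and from knock-in MEFs at passage 5 after 6 days of Dox (Dox (+)), with 1 library each. Both knock-in cultures carried the M2rtTA transactivator at the ROSA26 locus and a Dox-responsive M-Mitf, the isoform of melanocytes, downstream of Col1a1. They differ from each other by Dox and as separate cultures, and from MEF by genotype, passage and culture. Whether both knock-in cultures came from the same embryo is not given in the sources used here. They were grown from chimeric embryos made with a targeted embryonic stem cell clone, and such embryos also hold cells of the host blastocyst. The transgenic cells carried mCherry and puromycin resistance, by which they could be purified from chimeric cultures, and whether the sequenced cultures were purified in this way is not given in the sources used here. Primary mouse melanocytes, at passage 5, were not analysed here. Without replicates no difference could be set against the spread between cultures, and the intervals below are 95% counting intervals of the reads only.

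Values are RPKM, reads per kb of exon scaled to the aligned reads of the library, and the level of a gene is that of its highest exon. Reads were recovered from RPKM at depths of 45000000 reads in MEF and Dox (-) and 44000000 in Dox (+), and 3 reads on an exon of 150 bp correspond to 0.444 RPKM at the first depth and 0.455 at the second. Scaling by the median ratio over genes, tried as an alternative, used factors of 0.956 for MEF, 0.931 for Dox (-) and 1.13 for Dox (+). Mitf stood at 1.52 RPKM in MEF, 30.8 in Dox (-) and 1544 in Dox (+), highest in the library that received Dox. It was also 20.2-fold higher in Dox (-) than in MEF, between which the labels give no order. All 10 fibroblast markers were detected in each library, with summed levels of 54913 RPKM in MEF, 71850 in Dox (-) and 44230 in Dox (+). By the rule for calls given below, Col1a1, Col1a2, Col3a1 and Lum were lower in Dox (+) than in Dox (-). These are 4 of the 10, against 5.41% of all genes, while Vim was 1.98-fold higher. Dcn, Lum and Pdgfra, 3 of the 10, were called higher in Dox (-) than in MEF, against 8.26%. In either comparison, 0 were called the other way. All 10 macrophage markers were highest in Dox (-), with summed levels of 53.5 RPKM in MEF, 14839 in Dox (-) and 544 in Dox (+), and the only marker at 0 was Fcgr1 in MEF. Lyz2, the lysozyme gene of macrophages, had 27.8 RPKM in MEF, 10820 in Dox (-) and 379 in Dox (+). Macrophages secrete several of these chemokines, and the part of these markers in the differences below was not tested. In bulk RNA, fewer cells of a type and less RNA per cell cannot be told apart. The median log2 ratio of the last to the first exon was taken over 3992 genes. It was 1.18 in MEF, 0.91 in Dox (-) and 0.47 in Dox (+), so that coverage leaned toward the 3′ end most in MEF and least in Dox (+). Where folds below differ between the first and last exons of a member, the part of this lean was not tested.

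The promoters of 4 members are shown here because these genes stood on both sides of the comparison of Dox (+) with Dox (-): Il6 and Ccl8 were higher in Dox (+), and Cxcl1 and Cxcl10 were lower. Each line gives the 250 bases before the annotated start of the gene, from RefSeq on GRCm38.p6 (mm10), 5′ to 3′ along the gene, with matches to the motifs named below in capitals.
Il6, chr5:30012864-30013113, plus strand: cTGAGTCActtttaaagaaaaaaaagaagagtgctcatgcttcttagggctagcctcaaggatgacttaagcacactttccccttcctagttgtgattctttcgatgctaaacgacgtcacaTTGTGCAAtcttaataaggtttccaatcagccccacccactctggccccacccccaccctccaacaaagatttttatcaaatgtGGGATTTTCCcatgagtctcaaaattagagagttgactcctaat
Ccl8, chr11:82114935-82115184, plus strand: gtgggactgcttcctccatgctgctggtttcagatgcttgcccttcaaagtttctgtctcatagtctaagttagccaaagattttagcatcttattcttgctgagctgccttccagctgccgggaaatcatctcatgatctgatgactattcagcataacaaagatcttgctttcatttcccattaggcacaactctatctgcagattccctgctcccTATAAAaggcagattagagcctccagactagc
Cxcl1, chr5:90890995-90891244, plus strand: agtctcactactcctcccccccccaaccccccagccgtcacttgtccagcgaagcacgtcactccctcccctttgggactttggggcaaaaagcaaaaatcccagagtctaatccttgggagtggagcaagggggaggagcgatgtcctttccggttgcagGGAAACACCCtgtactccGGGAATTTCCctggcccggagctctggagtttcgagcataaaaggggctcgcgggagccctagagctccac
Cxcl10, chr5:92348890-92349139, minus strand: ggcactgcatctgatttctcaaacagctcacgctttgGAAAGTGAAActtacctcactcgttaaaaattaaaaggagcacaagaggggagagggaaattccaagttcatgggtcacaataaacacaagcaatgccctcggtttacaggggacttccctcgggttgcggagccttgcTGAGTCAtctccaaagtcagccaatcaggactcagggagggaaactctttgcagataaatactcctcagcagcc

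RefSeq promoters were found for 6 members, the 4 above with Cxcl12 and Cxcl14, and none was found for Ccl2, Ccl7, Ccl5 and Cxcl5. Motifs were searched on both strands. The NF-κB motif, read as GGG, any 2 bases and TTTCC, was in 1.41% of 32851 promoters of this length. Il6 held 1 match, from position -44 to -35, and Cxcl1 held 2, from -89 to -80 on the opposite strand and from -71 to -62. Other forms of the NF-κB motif were not searched, so a promoter without a match may still hold such a form. The interferon response element, read as GAAA, any 2 bases and GAAA, was in 2.98% of promoters and in those of Cxcl10, from -213 to -204, and Cxcl14, from -172 to -163. The AP-1 motif TGANTCA (6.75% of promoters) was found in Cxcl10 and Il6, the C/EBP motif TTGCNNAA (9.56%) in Il6 and the TATA box TATAAA (12.4%) in Ccl8. Neither of the E-box sequences that MITF binds, CATGTG (12.3% of promoters) and CACGTG (6.02%), was found in these 6 windows. The matches are a description of the letters. The G and C content was 64.4% in Cxcl12, 59.6% in Cxcl14 and 59.2% in Cxcl1, above the median of 52.4% over all promoters. It was below that median in Cxcl10, at 48%, in Ccl8, at 44.8%, and in Il6, at 42.8%.

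Between Dox (+) and Dox (-), the members did not move as a group. The neutrophil chemokines Cxcl1 and Cxcl5 and the interferon-inducible Cxcl10 were more than 10-fold lower in Dox (+), the monocyte chemokines Ccl2 and Ccl7 were about 3-fold lower, Ccl8 and Il6 were higher by 2.84-fold and 1.65-fold, and Cxcl12 and Cxcl14 differed by less than 1.5-fold. A gene was called when it passed 10 RPKM in either library and the levels differed by more than 4-fold. By this rule, 3 of the 9 members that reached 10 RPKM were called lower in Dox (+) and 0 were called higher. Over all 13307 genes that reached 10 RPKM, 5.41% were called lower and 1.64% higher. The median log2 fold change, after adding 1 RPKM, was -1.39 over the 9 members and 0.23 over those genes. With all 10 members it was -1.49.

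Against MEF, the untreated knock-in culture had far more of most members. In Dox (-), 7 of the 9 members above 10 RPKM were called higher than in MEF and 0 lower, against 8.26% and 1.21% of 13234 genes. These were Ccl2, Ccl7, Ccl8, Cxcl5, Cxcl10, Cxcl14 and Il6. The median log2 fold change was 4.06 over the 9 members and 0.01 over all genes at that level. In Dox (+), 5 of 7 members were called higher than in MEF, Ccl2, Ccl7, Ccl8, Cxcl14 and Il6, against 6.55% of 12941 genes, and Cxcl1 was called lower, against 3.4%. The call of Cxcl1 was lost with the length-weighted mean over exons, with 1 RPKM added before the fold, and at a fold above 8. The 2 comparisons with Dox (-) share that library, as the 2 with MEF share MEF, and they are not independent.

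**Figure D1:**
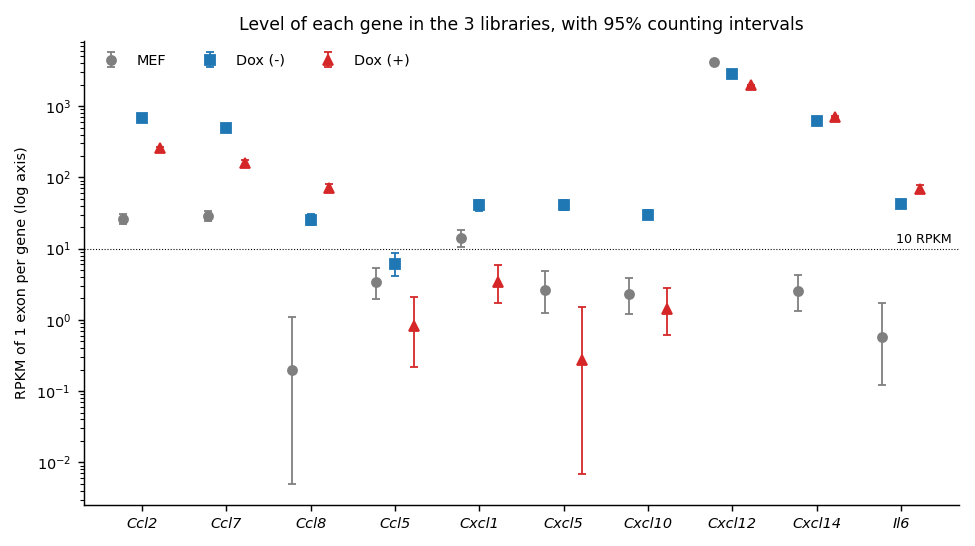
Level of each of the 10 genes on 1 exon, the exon with the highest mean over the libraries, in RPKM on a log axis, with 95% counting intervals as bars. Grey circles are MEF, blue squares Dox (-) and red triangles Dox (+), and the dotted line is 10 RPKM. Cxcl12 had the highest level in each library. Ccl2, Ccl7, Ccl8, Cxcl14 and Il6 were higher in both knock-in libraries than in MEF, with intervals that did not overlap those of MEF. Cxcl5 and Cxcl10 were above 10 RPKM in Dox (-) only, while Cxcl1 was also above it in MEF, at 14.0 RPKM.

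The members fell into 4 orders of the libraries. Ccl2 and Ccl7 were highest in Dox (-), then Dox (+), then MEF. Ccl8, Cxcl14 and Il6 were highest in Dox (+), then Dox (-), then MEF. Ccl5, Cxcl1, Cxcl5 and Cxcl10 were highest in Dox (-), then MEF, then Dox (+). Cxcl12 alone was highest in MEF, then Dox (-), then Dox (+).

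Ccl2 encodes the main attractant of monocytes that carry the receptor CCR2, and lies at chr11:82035571-82037453 on the plus strand (mm10, as all positions here). Its level was 26.2 RPKM in MEF, 674 in Dox (-) and 257 in Dox (+). On its second exon, the highest, MEF had 139 reads, Dox (-) 3578 and Dox (+) 1332. Dox (-) was therefore above both other libraries. Dox (+) was 2.63-fold below Dox (-) (2.47 to 2.80), and Dox (-) was 25.7-fold above MEF (21.7 to 30.7). The fold was near in all 3 exons, between 2.40 and 3.13 from Dox (-) to Dox (+), and was largest in the last exon.

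Ccl7, which encodes a second ligand of CCR2, starts 10.1 kb downstream of the start of Ccl2, on the same strand, from 82045712 to 82047525. It had 28.6 RPKM in MEF, 492 in Dox (-) and 162 in Dox (+), the same order as Ccl2. Its second exon had 144, 2479 and 797 reads. Dox (+) was 3.04-fold below Dox (-) (2.81 to 3.30), and Dox (-) was 17.2-fold above MEF (14.5 to 20.5). The ratio of the levels of Ccl7 and Ccl2 was 1.09 in MEF, 0.73 in Dox (-) and 0.63 in Dox (+). Neither gene reached the 4-fold rule between Dox (+) and Dox (-), and both did in each knock-in library against MEF.

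Ccl8, whose product draws monocytes and other leukocytes, lies in the same cluster from 82115185 to 82116799, and behaved otherwise. It was close to absent from MEF, at 0.20 RPKM, and stood at 25.4 RPKM in Dox (-) and 72.2 RPKM in Dox (+). The reads on its second exon were 1, 128 and 356. The level in Dox (+) was 2.84-fold that in Dox (-) (2.32 to 3.51), with a log2 fold change of 1.47, or 1.20 after the median ratio scaling. All 3 exons were higher in Dox (+), by between 2.73-fold and 2.94-fold. From MEF to Dox (-) the ratio was 128, with a wide interval (22.6 to 5095) since MEF had 1 read. Ccl8 was higher in the knock-in library with the lower summed level of macrophage markers, and the part of those markers in its level was not tested.

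Ccl5, which encodes RANTES, an attractant of T cells, monocytes and eosinophils, lies on the minus strand of chromosome 11 from 83525778 to 83530518. It did not reach 10 RPKM in any library. Its level was 3.37 RPKM in MEF, 6.15 in Dox (-) and 0.81 in Dox (+), with 17, 31 and 4 reads on its second exon. Dox (+) was 7.58-fold below Dox (-) (2.68 to 29.5). The difference between Dox (-) and MEF, 1.82-fold, was not detectable at this depth (0.979 to 3.51). Of the T and NK cell markers, Cd3g, Cd8a and Nkg7 were listed, and none exceeded 1.43 RPKM in any library. Their summed level was 1.43 RPKM in MEF, 1.52 in Dox (-) and 2.33 in Dox (+), and Cd3g and Nkg7 were at 0 in MEF.

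**Figure D2:**
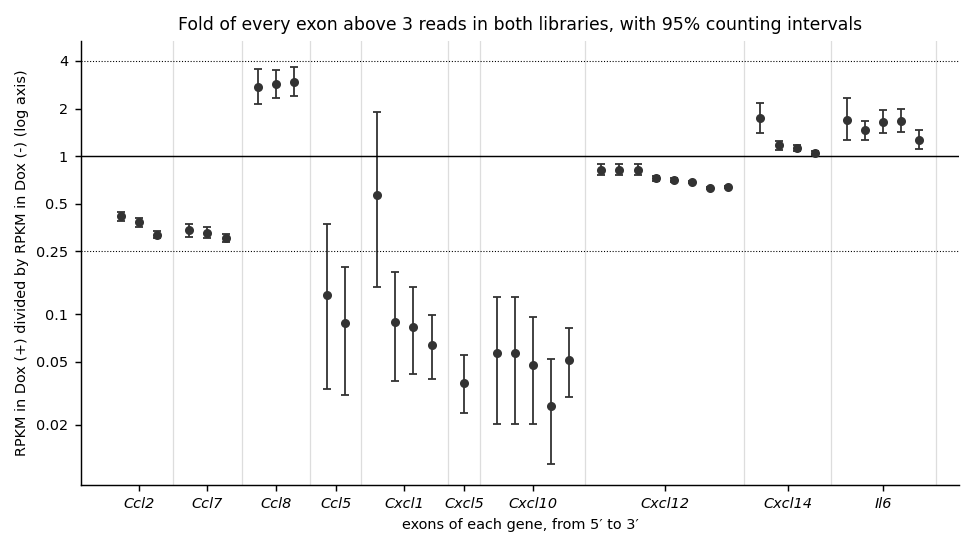
RPKM in Dox (+) divided by RPKM in Dox (-), on a log axis, for every exon of the members with more than 3 reads in both libraries, ordered from 5′ to 3′ within each gene, with 95% counting intervals as bars. The solid line is no difference and the dotted lines are 4-fold. Exons of Ccl2, Ccl7 and Cxcl12 lay below the solid line and those of Ccl8, Cxcl14 and Il6 above it. The first exon of Cxcl1 lay nearest to the line among the exons of the genes called lower, with an interval that includes it.

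Cxcl1 and Cxcl5 encode ligands of the neutrophil receptor CXCR2 and belong to 1 cluster of chromosome 5, both read from its plus strand. Cxcl1, from 90891241 to 90893115, had 14.0 RPKM in MEF, 40.6 in Dox (-) and 3.37 in Dox (+), with 51, 148 and 12 reads on the 81-bp exon that was highest. Dox (+) was below both others, 12.1-fold below Dox (-) (6.70 to 23.9) and 4.16-fold below MEF (2.19 to 8.56), the second fold close to the threshold of 4. Dox (-) was 2.90-fold above MEF (2.10 to 4.07) and was not called. The first exon of Cxcl1 had 1 read in MEF, 9 in Dox (-) and 5 in Dox (+), too few to show a difference.

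Cxcl5, from 90759360 to 90761624, had 2.65 RPKM in MEF and 41.5 in Dox (-), both on an 84-bp exon, and 0.48 in Dox (+), on the last exon. The reads on the 84-bp exon were 10 in MEF, 157 in Dox (-) and 1 in Dox (+). The ratio of Dox (-) to Dox (+) was 154 on this exon (27.2 to 6102). The last exon held most reads of Cxcl5 in Dox (+), 25, against 691 for Dox (-), a 27.0-fold difference, and each of the other 3 exons had 1 read there. Dox (-) was 15.7-fold above MEF (8.31 to 33.4). Since Cxcl5 differed more than Cxcl1 in both steps, Cxcl1 stood 5.29-fold above Cxcl5 in MEF and 6.95-fold above it in Dox (+). In Dox (-) the levels per length were nearly equal, with a ratio of 0.978. The ratio in Dox (+) rests on 12 reads of Cxcl1 and on another exon of Cxcl5 than in MEF and Dox (-). As length-weighted means over exons, Cxcl1 and Cxcl5 had 4.85 and 0.998 RPKM in MEF and 1.10 and 0.399 in Dox (+). By these means, Cxcl1 stood further above Cxcl5 in MEF than in Dox (+).

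Cxcl10, from 92346638 to 92348889 on the minus strand of chromosome 5, encodes a ligand of CXCR3 that interferons induce. It had 2.96 RPKM in MEF, 30.1 in Dox (-) and 1.43 in Dox (+). The first of these is from a 90-bp exon and the other values are from a 127-bp exon, on which the reads were 13, 172 and 8. Only Dox (-) was above 10 RPKM. Dox (+) was 21.02-fold below Dox (-) (10.4 to 49.5), and Dox (-) was 13.2-fold above MEF (7.53 to 25.4). MEF and Dox (+) did not differ beyond counting error (1.59-fold, 0.61 to 4.42). As a length-weighted mean over its exons, Cxcl10 was at 9.70 RPKM in Dox (-) and below the threshold. Its last exons overlap the annotation of Art3 on the opposite strand, and whether counting used strand is not given in the sources used here.

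Cxcl12 encodes SDF-1, the ligand of CXCR4 and of the scavenger receptor ACKR3, and lies at chr6:117168535-117181367 on the plus strand. It had the highest level per length of the members in each library, with 4135 RPKM in MEF, 2798 in Dox (-) and 1971 in Dox (+). The reads on the 87-bp exon that was highest were 16189, 10954 and 7544. Dox (+) was 1.42-fold below Dox (-) (1.38 to 1.46), and Dox (-) was 1.48-fold below MEF (1.44 to 1.51). Neither step, nor the 2.10-fold step from MEF to Dox (+), reached 4-fold.

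The ends of Cxcl12 differed more than its start. Its transcripts share 3 exons and end in different places, the alpha form by reading on past the last shared exon, the beta form in a further exon and the gamma form in a longer version of that exon. From MEF to Dox (-), the first exon was 1.16-fold lower (1.08 to 1.25), the second 1.37-fold, the third 1.48-fold and the end of the alpha form, from 117173579 to 117175069, 1.60-fold (1.58 to 1.62). The last exon of the beta form, from 117178583 to 117181366, which the gamma form shares, was 2.43-fold lower (2.40 to 2.46). Its level was 662 RPKM in MEF, 272 in Dox (-) and 174 in Dox (+), and that of the alpha end was 1085, 679 and 465 RPKM. The ratio of the last exon to the alpha end was thus 0.610 in MEF (0.604 to 0.616), 0.401 in Dox (-) (0.396 to 0.407) and 0.375 in Dox (+) (0.368 to 0.381). The part found in the gamma form alone was low, at 56.0, 34.2 and 18.1 RPKM. The 3′ lean of all genes given above was also strongest in MEF and weakest in Dox (+), and its part in these ratios was not tested.

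**Figure D3:**
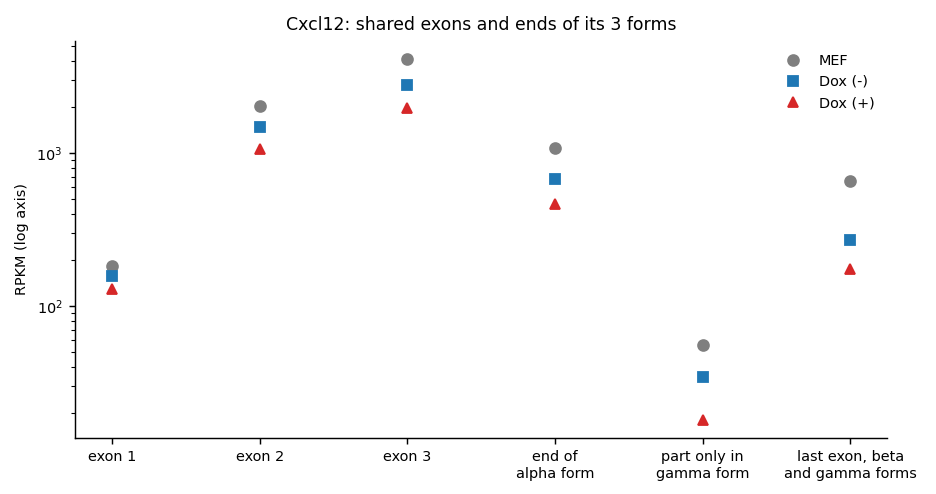
RPKM on a log axis for the first 3 exons of Cxcl12, the end of its alpha form, the part found in the gamma form alone and the last exon shared by the beta and gamma forms. Symbols are the 3 libraries, and counting intervals would be smaller than the symbols or close to their size. The gap between MEF and the knock-in libraries widens from the first exon, 182 RPKM in MEF and 157 in Dox (-), to the last, 662 and 272.

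Cxcl14 encodes a chemokine made constitutively in skin and other epithelia and in fibroblasts, and lies on the minus strand of chromosome 13 from 56288643 to 56296551. It was low in MEF and high in both knock-in cultures, with 2.53 RPKM in MEF, 624 in Dox (-) and 703 in Dox (+). The highest exon, of 114 bp, had 13, 3202 and 3526 reads. Dox (-) was 246-fold above MEF (144 to 463), and 448-fold on the last exon (303 to 693). The knock-in libraries were close to each other, Dox (+) being 1.13-fold above Dox (-) (1.07 to 1.18), and this order turned under the median ratio scaling, from a log2 fold change of 0.17 to -0.11. The exons of Cxcl14 were between 1.05-fold and 1.73-fold higher in Dox (+), with the largest fold in the first exon.

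Il6, at chr5:30013114-30019981 on the plus strand, had 1.33 RPKM in MEF, 42.1 in Dox (-) and 69.6 in Dox (+). On the 114-bp exon that was highest in the knock-in libraries the reads were 3, 216 and 349. Dox (+) was 1.65-fold above Dox (-) (1.39 to 1.97), with a log2 fold change of 0.71, or 0.43 after that scaling. The 5 exons were higher by between 1.27-fold and 1.70-fold, and the last exon had the smallest fold. Dox (-) was 72.0-fold above MEF on that exon (24.3 to 352), where MEF had 3 reads, and the fold was smaller on the exons of Il6 with more reads in MEF. It was 31.4 on the second exon (17.3 to 63.4), with 11 reads in MEF, and about 14.6 on the last (9.82 to 22.7), with about 26. On the first and last exons of Il6 the recovered reads were not whole and were rounded, so that their folds are approximate. Il6 had the same order of libraries as Ccl8.

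The neighbours of the members on the chromosomes were read next, as every chemokine gene within 200 kb. In the cluster that starts with Ccl2, Ccl11, which encodes eotaxin, was at 0 RPKM in MEF, 10.7 in Dox (-) and 1.01 in Dox (+). Ccl12, which encodes a further ligand of CCR2, was at 0, 127 and 2.50 RPKM. Its gene lies between Ccl11 and Ccl8. The reads of Ccl12 on 1 exon numbered 677 in Dox (-) against 13 in Dox (+), a 50.9-fold difference (29.6 to 96.1), and with 0 reads in MEF it was at least 226-fold higher in Dox (-). The folds from Dox (-) to Dox (+) along this cluster were therefore 2.63-fold lower for Ccl2, 3.04-fold lower for Ccl7, 10.56-fold lower for Ccl11, 50.9-fold lower for Ccl12 and 2.84-fold higher for Ccl8. Ccl8 alone of the 5 listed genes was higher in Dox (+).

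Near Ccl5 the other CC genes were all well above it in Dox (-). Ccl9 had 199 RPKM in Dox (-) and 26.2 in Dox (+), Ccl6 had 63.0 and 30.3, Ccl3 had 36.3 and 2.64, and Ccl4 had 53.3 and 2.57. In MEF, Ccl9 had 17.6 RPKM and the other 3 were at 0.29 RPKM or below. In the cluster of Cxcl5 and Cxcl1, the platelet chemokine genes Pf4 and Ppbp had 94.9 and 11.3 RPKM in Dox (-) and 1.37 and 0.66 in Dox (+). Cxcl15 had 19.0 and 0.81 RPKM, and Cxcl2, another CXCR2 ligand, had 10.58 and 1.65 RPKM. Of the 7 genes of this cluster, 6 were called lower in Dox (+) than in Dox (-), against 5.41% of all genes that reached 10 RPKM. Cxcl3, at 1.59 RPKM or below, was the exception. Cxcl9 and Cxcl11, which flank Cxcl10 and encode the other CXCR3 ligands, had 6 reads each in Dox (-) on their highest exon and 0 in both other libraries.

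**Figure D4:**
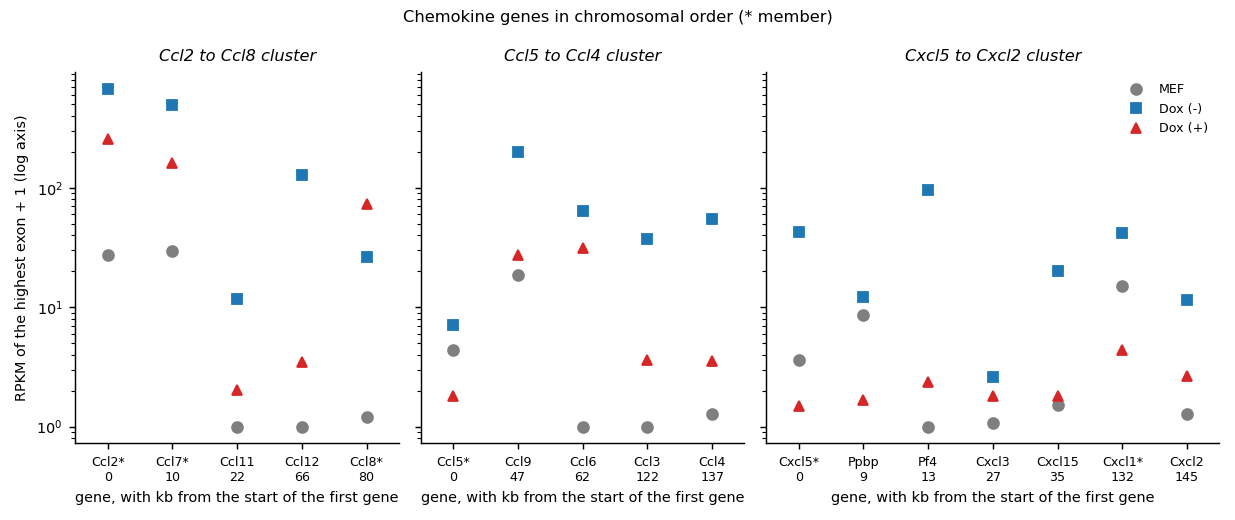
RPKM of the highest exon plus 1, on a log axis, for the chemokine genes of 3 clusters in chromosomal order, with the distance in kb from the start of the first gene under each name and an asterisk on members. Grey circles are MEF, blue squares Dox (-) and red triangles Dox (+). Dox (-) is the highest library for every gene but Ccl8, where Dox (+), at 72.2 RPKM, lies above Dox (-), at 25.4 RPKM.

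Among other chemokines, chosen by name, 23 of 26 were listed. Of the 14 that reached 10 RPKM in Dox (-) or Dox (+), 11 were called lower in Dox (+), 0 higher and 3 neither. Over all genes at that level, 5.41% were called lower and 1.64% higher. From MEF to Dox (-), 11 of 14 were called higher, against 8.26% of all genes. Cxcl16, whose product draws CXCR6-bearing T cells, had 14.5 RPKM in MEF, 195 in Dox (-) and 17.3 in Dox (+). Cx3cl1, which encodes fractalkine, had 55.1, 75.7 and 82.1 RPKM and was not called in any comparison. Ccl25 had 85.7, 88.9 and 214 RPKM and was not called either. Ccl20 had 0.24, 20.2 and 2.17 RPKM. Genes called lower in this list had the same highest library as the macrophage markers, Dox (-), and the part of those markers in the counts was not tested.

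The receptors of these ligands were next. Of 12 genes, 6 reached 10 RPKM in Dox (-) or Dox (+), and 3 were called lower in Dox (+), among them Cxcr4 and Ackr3. Of all genes at that level, 5.41% were called lower. Ackr3, which encodes the scavenger receptor of CXCL12, had the highest level of the listed chemokine receptors in MEF, 754 RPKM, and stood at 181 in Dox (-) and 44.9 in Dox (+). It was called lower in each of the 3 comparisons, at 4.16-fold from MEF to Dox (-), 4.04-fold from Dox (-) to Dox (+) and 16.8-fold from MEF to Dox (+), the first 2 close to the threshold. Cxcr4, the signalling receptor of CXCL12, had 0.19 RPKM in MEF, 12.5 in Dox (-) and 1.73 in Dox (+). Ccr1, a receptor of several CC chemokines, had 0.02, 9.94 and 12.7 RPKM, and was called higher in Dox (+) than in MEF. Ccr2, the receptor of CCL2 and CCL7, did not exceed 0.59 RPKM in any library, and Cxcr2 and Cxcr3 did not exceed 0.29 RPKM. For interleukin-6, Il6ra had 4.73, 43.5 and 15.0 RPKM, and Il6st, the shared signalling chain, had 581, 592 and 350 RPKM.

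Genes of the NF-κB pathway were called between Dox (+) and Dox (-) at a share near that of all genes. Of 18 genes, 16 reached 10 RPKM, 0 were called higher and 1 lower, with a median log2 fold change of -0.08, against 5.41% lower and 1.64% higher over all genes at that level. That gene was Tnf, at 0.46 RPKM in MEF, 35.2 in Dox (-) and 0.47 in Dox (+). Tnfrsf1a, which encodes a TNF receptor, had the highest level of the list, 2961, 4967 and 5955 RPKM, and was not called. Nfkbia, the feedback inhibitor of NF-κB, had 62.9, 98.9 and 104 RPKM, and Tnfaip3, another inhibitor, had 12.1, 13.7 and 12.7 RPKM. The adhesion genes Icam1 and Vcam1, and Il1r1, were called higher in both knock-in libraries than in MEF, with Vcam1 at 49.3, 258 and 216 RPKM. With Tnf, they were 4 of 16 genes called higher in Dox (-) than in MEF, against 8.26% of all genes. In Dox (+) they were 3 of 15 genes called higher than in MEF, against 6.55%. In both comparisons with MEF, 0 genes of the list were called lower. Il1b was at 0 RPKM in MEF and Dox (+) and at 2.72 in Dox (-).

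Several interferon-stimulated genes were lower in Dox (+), as was Cxcl10. Of 12 genes of the interferon response, 11 reached 10 RPKM, and 5 of these were called lower, Ifit1, Ifit3, Isg15, Rsad2 and Oasl2. The median log2 fold change of the 11 was -1.73, and 5.41% of all genes at that level were called lower. Rsad2, which encodes the antiviral protein viperin, had 0.27 RPKM in MEF, 20.2 in Dox (-) and 0.59 in Dox (+), and Isg15 had 11.8, 43.9 and 10.3 RPKM. Irf1 had 134, 101 and 95.9 RPKM and was not called. In the comparison of Dox (+) with MEF, none of the 6 interferon-stimulated genes at that level was called, with 6.55% of all genes called higher and 3.4% lower. The counts of 0 come from a rule on size and not from a test.

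Cytokines of the interleukin-6 family and colony-stimulating factors included no called gene between Dox (+) and Dox (-) among 7 at that level, with a median log2 fold change of 0.29. With 5.41% of all genes called lower and 1.64% higher, 0 of 7 is no result about this list. Lif, an interleukin-6 family cytokine, had 11.6 RPKM in MEF, 41.8 in Dox (-) and 98.2 in Dox (+), and Il11, another, had 11.5, 36.3 and 133 RPKM. Both had the order of Il6, and both were called higher in Dox (+) than in MEF. So was Socs3, a feedback inhibitor of interleukin-6 signalling, with 5.56, 20.5 and 23.5 RPKM. These were 3 of the 7 genes of the list above 10 RPKM in Dox (+) or MEF, against 6.55% of all genes. In that comparison 0 were called lower, against 3.4%. Csf1, the growth factor of macrophages, had 260, 896 and 952 RPKM and was not called in any comparison.

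**Figure D5:**
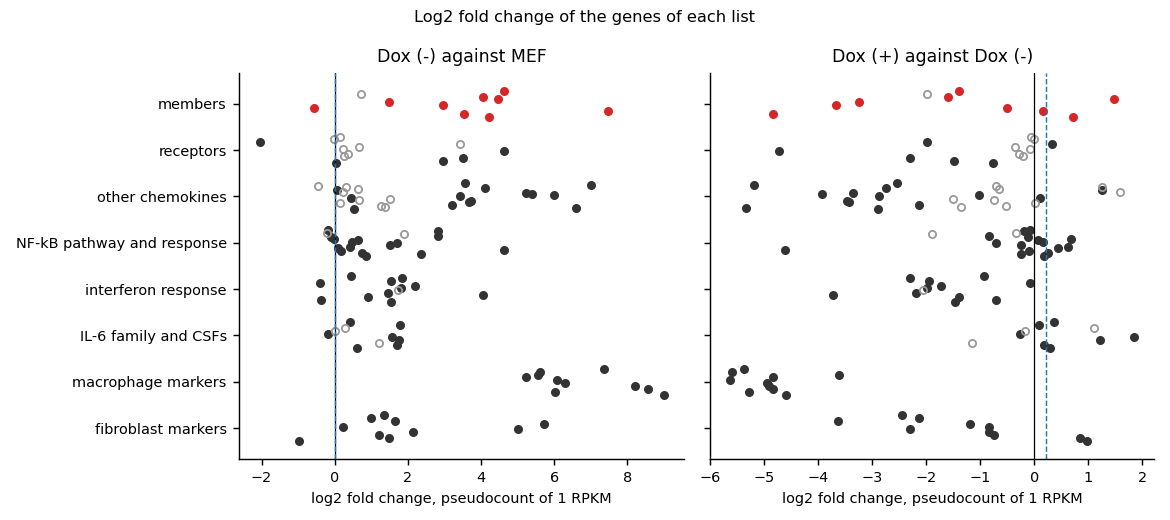
Log2 fold change of each listed gene, after adding 1 RPKM, for Dox (-) against MEF on the left and Dox (+) against Dox (-) on the right, by gene list. Filled points are genes that passed 10 RPKM in either library of the comparison, with members in red, and open points are the others. The dashed line is the median of all genes above 10 RPKM, 0.01 on the left and 0.23 on the right. Macrophage markers and most other chemokines lie to the right of 0 on the left and to the left of 0 on the right. In the right panel, members and other chemokines each have genes on both sides of 0. Their medians there over all listed genes were -1.49 and -1.50.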

How the data were processed

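RNA-seq values of 3 of the 4 libraries were used, 1 library per condition. The authors aligned reads to mm10 with TopHat2 2.0.10, counted them per Ensembl exon (bedtools) and deposited the exon values as RPKM. Columns were assigned by name, and 1 column that matched no library was left unused, so that primary melanocytes and their comparisons were not analysed here. How reads that map to several places were treated, and whether strand was used, are not given in the sources used here.

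Exons were assigned to genes with GENCODE release M21, on the same build, and 6586 identifiers had no match. The highest exon gave the level of a gene, as in the methods of the study. Reads were recovered from RPKM, exon length and a library depth searched from 20 to 80 M reads in steps of 1 M, which made 96.7% to 97.0% of values below 200 reads whole within 0.01. A read on a junction counts on both exons. Intervals of 1 exon are exact Poisson and those of ratios are conditional binomial (Clopper-Pearson), at 95%, and cover counting error only. A fold against 0 reads was taken against 3 reads, as a bound. Cells with other markers were read from lists of macrophage, fibroblast, T and NK cell, melanocyte, endothelial and epithelial genes. Of these lists, the 10 melanocyte markers summed to 53.7, 567 and 2471 RPKM in MEF, Dox (-) and Dox (+). Most of this sum was Mitf itself, at 1.52, 30.8 and 1544 RPKM, and Gpnmb, at 47.8, 522 and 662 RPKM. Tyrp1 and Mlana had 110 and 133 RPKM in Dox (+), while Tyr, Dct, Sox10, Kit and Slc45a2 stayed below 10 RPKM in each library. The 5 endothelial markers summed to 9.37, 17.6 and 5.78 RPKM and the 5 epithelial to 28.4, 7.42 and 6.68 RPKM.

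All members were named, with up to 4 called or highest genes of each list and the chemokine genes within 200 kb of a member. Other genes of the lists were chosen after their values were seen, and 1 gene of the receptor list is not reported here. The members, the lists and the motifs were chosen with earlier results of these data known. No p-value was computed. The alternatives changed the level of a gene, both thresholds, the pseudocount and the scaling. The steps were tested on simulated data. Python 3.11.15, pandas 2.3.3, NumPy 2.4.6, SciPy 1.17.1 and matplotlib 3.10.9 were used.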

Additional observations from a re-analysis of the deposited data

How the results depend on the processing

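Of 42 alternative counts of called members, 35 stayed within 1.5 times the reported count. Between Dox (+) and Dox (-), a fold above 2 in place of 4 gave 1 member higher and 5 lower, since Ccl8, Ccl2 and Ccl7 then passed. For members lower in Dox (+) than in MEF, reported as 1, the count was 0 with the length-weighted mean over exons, 0 at a fold above 8 and 0 with a pseudocount of 1 RPKM before the fold, 2 at a fold above 2 and 3 with a threshold of 1 RPKM. Of 150 alternative log2 fold changes of single members, 149 kept their sign, and the exception was Cxcl14 between Dox (+) and Dox (-), at -0.11 after median ratio scaling against 0.17. The planned comparison of PMel with MEF was not run. No paired analysis was possible because each condition had 1 library. Depth limits Ccl5 and the low library of Cxcl1, Cxcl5, Cxcl10, Cxcl14, Ccl8 and Il6, where the exon used for folds held 17 reads or fewer.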
